A study of Mus musculus with 12 samples.

Results

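The Ly6 genes Ly6a, Ly6c1, Ly6c2, Ly6d and Ly6e were followed in liver RNA from healthy mice, from mice with a diet and toxin induced form of non-alcoholic steatohepatitis (NASH), and from such mice given the bromodomain inhibitor I-BET151. These 5 genes, of 47729 in the count files, were selected on their symbols with results of both comparisons below already known, so their levels and fold changes are given as a description, without a p-value for any of them, and counts of calls stand beside the same count over all tested genes. Each of the 3 groups held 4 C57BL/6 mice. The healthy group (Naive_vehicle) was wild type (WT) and received vehicle. The vehicle group (STAM_vehicle) was the STAM model, in which male mice received streptozotocin as neonates, which destroys pancreatic islet cells, and then a high-fat diet, and it also received vehicle. The I-BET151 group (STAM_treated) was the STAM model given I-BET151 orally once daily at 10 mg/kg. Dosing ran from week 6, and liver was collected at week 9. Injected toxin and diet both separate the STAM mice from the healthy mice, so their effects cannot be told apart. The compound was suspended in hydroxypropyl methylcellulose with Tween 80, whereas the study's methods describe a methylcellulose vehicle for the controls, so compound and formulation cannot be told apart.

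Ly6 proteins are small surface proteins of the Ly6/uPAR family, folded around a core of disulfide bonds and held in the outer membrane leaflet by a glycosylphosphatidylinositol (GPI) anchor. Several of them serve as antigens by which blood and stem cells are sorted. Ly6C, encoded by Ly6c1 and Ly6c2, is carried by monocytes and by some endothelial and lymphoid cells, with Ly6c2 the main form of inflammatory monocytes and Ly6c1 that of endothelium. Ly6a encodes Sca-1, a marker of haematopoietic stem cells that is also found on endothelial cells and activated lymphocytes and is induced by interferon. Ly6e is broadly expressed, is interferon-induced and alters the entry of several viruses into cells. Ly6d marks lymphoid progenitors committed towards B cells and is also made by keratinocytes.

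All 5 genes lie on chromosome 15 of the mouse genome (GRCm38), within a stretch that opens with Ly6d. Ly6d (ENSMUSG00000034634) spans positions 74762056 to 74763620 on the minus strand. Ly6e (ENSMUSG00000022587) spans 74955051 to 74959905 on the plus strand. Ly6a (ENSMUSG00000075602) spans 74994877 to 74998031 on the minus strand. Ly6c1 (ENSMUSG00000079018) spans 75044018 to 75048830 and Ly6c2 (ENSMUSG00000022584) spans 75108158 to 75111970, both on the minus strand. The start of Ly6c2 thus lay 346 kb from that of Ly6d.

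Ly6c1 and Ly6c2 are close copies, which bears on how far their counts can be separated. Their coding sequences, read from GENCODE M21 transcripts, were both 396 bases long and differed at 9 positions (97.7% identity), with a longest identical run of 188 bases. Of these differences, 6 fall in bases 1 to 120, counted from the start codon, and that stretch is shown 5′ to 3′ with the bases that differ in capitals.
Ly6c1: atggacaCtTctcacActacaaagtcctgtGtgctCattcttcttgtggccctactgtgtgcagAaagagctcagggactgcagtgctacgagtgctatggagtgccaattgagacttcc
Ly6c2: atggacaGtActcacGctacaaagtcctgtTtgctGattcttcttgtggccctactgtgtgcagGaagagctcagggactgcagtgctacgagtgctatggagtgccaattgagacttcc

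Ly6a was less close, at 82.0% identity with Ly6c1 and 81.7% with Ly6c2. Ly6d and Ly6e shared between 50.0% and 53.8% of aligned positions with any other of the 5 genes and with each other. Reads were 101 bases long and the authors counted uniquely mapped reads, so a read that fits 2 genes equally was not counted for either. Of the 101-base windows in Ly6c1 transcripts, 90.1% occurred in no other annotated transcript, against 94.3% for Ly6c2, 98.6% for Ly6a and 100% for Ly6d and Ly6e. The 173 shared windows of Ly6c1 were shared with Ly6c2 (155) and with Ly6a (18). Windows within a gene body outside annotated transcripts were not compared, and counts of the close copies Ly6c1 and Ly6c2 are therefore uncertain where reads fell in the shared stretches.

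The regions before the start of the same copies were less alike than their coding sequences. The RefSeq promoter table (GRCm38.p6) matched 2 of the 5 genes, Ly6c1 and Ly6c2. The 250 bases before their outermost start were 57.7% identical over 284 aligned columns, with 164 columns identical and 68 gaps. The alignment ran end to end and counted any overhanging ends as gaps. The windows are offset, since the first bases of the Ly6c2 window lie further inside that of Ly6c1. The 57.7% therefore mixes offset and sequence difference. Both windows are given 5′ to 3′ on the minus strand, for Ly6c1 at chr15:75048838-75049087 and for Ly6c2 at chr15:75111972-75112221, with matches to the motifs searched in capitals.
Ly6c1: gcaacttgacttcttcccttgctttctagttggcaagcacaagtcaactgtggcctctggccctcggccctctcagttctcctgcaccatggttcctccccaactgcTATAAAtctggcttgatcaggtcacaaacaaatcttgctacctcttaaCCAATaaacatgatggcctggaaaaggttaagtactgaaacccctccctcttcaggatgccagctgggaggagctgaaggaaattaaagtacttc
Ly6c2: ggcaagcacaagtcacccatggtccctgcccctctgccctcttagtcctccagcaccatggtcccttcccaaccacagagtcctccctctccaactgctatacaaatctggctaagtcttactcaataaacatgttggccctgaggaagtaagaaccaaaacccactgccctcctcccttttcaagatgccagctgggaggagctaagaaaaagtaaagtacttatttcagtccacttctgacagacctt

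The motifs searched, on both strands, were GAAANNGAA (found in interferon response elements), TTCNNNGAA (the site form of STAT dimers), TATAAA and CCAAT. Over the 250 upstream bases of all 32851 promoters in the table, 7.13% held GAAANNGAA, 7.02% TTCNNNGAA, 12.4% TATAAA and 33.8% CCAAT. None of the 4 start sites listed for Ly6c1 and Ly6c2 had GAAANNGAA or TTCNNNGAA in this window. The window of Ly6c1 held TATAAA beginning 143 bases and CCAAT beginning 95 bases before the start, without overlap, and the window of Ly6c2 held neither.

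The 12 libraries held 34711229 to 53365596 counts. The library of I-BET151 mouse 3 stood apart from the other 11. Its scaling factor from TMM, the trimmed mean of M values normalization, was 1.61 against 0.770 to 1.11 in the others, its 10 most abundant genes took 7.95% of counts against 13.5% to 18%, and mitochondrial genes took 2.71% against 4.51% to 7.30%. Levels below are CPM, counts scaled to a common library size after TMM, and fold changes come from edgeR's quasi-likelihood fit to all 12 mice and 16823 genes, given with their standard error. Fold changes of the Ly6 genes in I-BET151 against vehicle mice are given with and without I-BET151 mouse 3.

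Compared per kb of annotated exon, Ly6e was the most abundant of the 5 in healthy liver and the Ly6C genes the least. The mean level in healthy mice was 40.0 ± 3.63 CPM per kb for Ly6e (SD, n = 4), 4.70 ± 1.84 for Ly6a, 2.25 ± 0.541 for Ly6d, 0.265 ± 0.156 for Ly6c1 and 0.116 ± 0.0731 for Ly6c2. The ranges of Ly6a and Ly6d overlapped, as did those of Ly6c1 and Ly6c2, so neither pair was separated beyond the spread between mice. In vehicle mice Ly6d stood second, at 56.9 ± 38.8 CPM per kb (SD, n = 4), and its range overlapped that of Ly6e at 75.8 ± 11.3. The overlap came from vehicle mouse 3, with 114 CPM per kb of Ly6d against 28.9 to 46.9 in the other vehicle mice, while the lowest Ly6e value was 60.8. Ly6a followed at 18.5 ± 4.05, Ly6c1 at 1.10 ± 0.199 and Ly6c2 at 0.394 ± 0.0833 CPM per kb, with no overlap between neighbours from Ly6d downwards. The order in I-BET151 mice was that of the vehicle mice, with 56.5 ± 22.9 CPM per kb for Ly6e, 39.4 ± 15.2 for Ly6d, 8.09 ± 3.73 for Ly6a, 0.783 ± 0.271 for Ly6c1 and 0.171 ± 0.0687 for Ly6c2, and here too only Ly6e and Ly6d overlapped. Annotated exons of Ly6c2 (2740 bases) include a retained-intron transcript, and with the length of its first-numbered transcript (822 bases, and likewise for the other genes), an alternative chosen after the data were seen, the order was the same in each group, but Ly6d then overlapped Ly6a in vehicle and I-BET151 mice and not in healthy mice, and Ly6e and Ly6d no longer overlapped in I-BET151 mice.

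The first comparison asks how the livers of untreated STAM mice differed from healthy livers. All 5 Ly6 genes were higher in vehicle mice than in healthy mice, by between 1.90-fold for Ly6e and 25.4-fold for Ly6d, and for none of them did the 2 groups overlap. Among all tested genes, 14.2% were separated upwards in this way, and 5.72% were called higher by edgeR at an adjusted p of 0.05 or less, as all 5 of these genes were. The genes were chosen with this comparison in view, so nothing is read from these counts. Liver is a mixed tissue, and in such samples more cells of a type and more RNA per cell cannot be told apart.

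Ly6d, the marker of lymphoid progenitors and keratinocytes, had the widest difference. Its level was 1.28, 1.80, 2.18 and 1.44 CPM in healthy mice 1 to 4. In vehicle mice 1 to 4 it was 34.9, 21.5, 84.9 and 28.1 CPM. Vehicle mouse 3 was more than 2-fold above each of the other vehicle mice, and the lowest vehicle mouse was still far above the highest healthy mouse. The log2 fold change was 4.67 ± 0.47 (SE), which placed Ly6d at rank 33 from the top among the 16823 tested genes. Without vehicle mouse 3 the log2 fold change was 4.08.

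Ly6a (Sca-1), the stem cell and endothelial antigen, measured 8.49, 6.01, 3.17 and 5.0 CPM in healthy mice 1 to 4 and 20.5, 18.5, 29.4 and 20.8 CPM in vehicle mice 1 to 4. The groups did not overlap, with vehicle mouse 3 again the highest. This was a 3.91-fold difference (log2 fold change 1.97 ± 0.32).

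The Ly6C genes were scarce in both groups. Ly6c1, the endothelial form, had 35, 15, 4 and 18 counts in healthy mice 1 to 4 and 88, 113, 81 and 73 in vehicle mice 1 to 4, which corresponded to means of 0.444 ± 0.262 and 1.85 ± 0.333 CPM (SD, n = 4). Ly6c2, the form of inflammatory monocytes, had 27, 12, 10 and 3 counts in healthy mice and 41, 45, 72 and 51 in vehicle mice, or 0.317 ± 0.200 and 1.08 ± 0.228 CPM. Healthy mouse 1 was the highest healthy mouse for both genes, and vehicle mouse 3 was the highest vehicle mouse for Ly6c2 but not for Ly6c1. Log2 fold changes were 2.02 ± 0.40 for Ly6c1 and 1.73 ± 0.43 for Ly6c2. Counts this low carry a large counting error, and a filter that asks for 10 counts in every mouse removed both genes. The ratio of Ly6c1 to Ly6c2 counts ran from 0.400 to 6.00 in healthy mice and from 1.13 to 2.51 in vehicle mice.

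Ly6e, the broadly expressed and interferon-induced gene, had the smallest fold change and the largest change in CPM. Healthy mice 1 to 4 measured 157, 166, 135 and 147 CPM, and vehicle mice 1 to 4 measured 230, 278, 323 and 316 CPM. Vehicle mouse 1 was closest to the healthy mice and did not reach them. The groups differed by 0.92 ± 0.25 on the log2 scale. In healthy mice Ly6e made up 93.4% to 95.9% of the summed CPM of the 5 genes. In vehicle mice it made up 73.4% to 86.6%, and the share of Ly6d went from between 0.758% and 1.55% to between 6.69% and 19.3%, the latter in vehicle mouse 3 against at most 12.1% in the other vehicle mice.

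**Figure D1:**
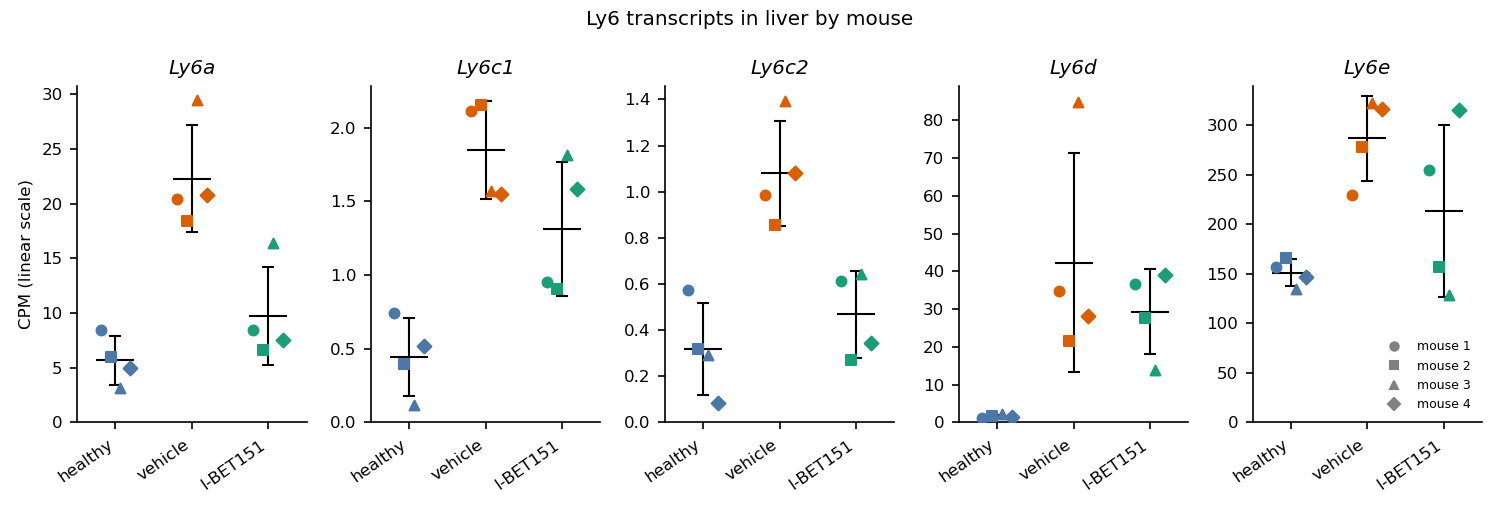
Level of each of the 5 Ly6 genes in CPM (linear axis from 0, its own scale for each gene) in healthy, vehicle and I-BET151 mice. Symbols are single mice, the symbol shape gives the mouse number within its group, the black bar is the group mean and the whiskers are the SD (n = 4). All vehicle mice lie above all healthy mice for each gene, and the I-BET151 mice lie wholly below the vehicle mice for Ly6a and Ly6c2 only.

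The calls of Ly6c2 and Ly6e were lost with fewer mice, while their log2 fold changes with 1 mouse left out ran from 1.43 to 2.21 for Ly6c2 and from 0.86 to 1.01 for Ly6e. Ly6e was no longer called without healthy mouse 1, 2, 3 or 4 or vehicle mouse 2, 3 or 4, and Ly6c2 without healthy mouse 2, 3 or 4 or vehicle mouse 3 or 4, whereas Ly6a, Ly6c1 and Ly6d were called with any 1 library left out. Only sequencing lane 2, read from the file names, held both a healthy and a vehicle mouse, and within it vehicle mouse 4 exceeded healthy mouse 1 by 4.41 for Ly6d, 1.29 for Ly6a, 1.01 for Ly6c1, 1.01 for Ly6e and 0.86 for Ly6c2 in log2 CPM. With lane as a covariate edgeR called 0 of the 5 genes (2 at an unadjusted p under 0.05) and 37 of all 16823 (1298 at an unadjusted p under 0.05). The log2 fold changes were then 5.02 for Ly6d, 0.94 for Ly6e, 1.31 for Ly6a, 1.18 for Ly6c1 and 1.17 for Ly6c2.

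The second comparison asks what I-BET151 changed in STAM livers. Mean levels of all 5 Ly6 genes were lower in I-BET151 mice than in vehicle mice, from 1.34-fold lower for Ly6e to 2.28-fold lower for Ly6a. edgeR called 0 of the 5 at an adjusted p of 0.1 or less, where it called 0.351% of all tested genes in either direction and 0.256% as lower. Of the 5, 2 (Ly6a and Ly6c2) were at an unadjusted p under 0.05, as were 1460 of all 16823 tested genes, and DESeq2 called 1, Ly6a, and 268 of 18086 genes in all. For these 2 genes every I-BET151 mouse lay below every vehicle mouse, as did 2.63% of all tested genes. Both comparisons use the same vehicle mice and are therefore not independent.

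Ly6a measured 8.43, 6.63, 16.4 and 7.54 CPM in I-BET151 mice 1 to 4. Mouse 3, whose library stood apart, was the highest, and still below the lowest vehicle mouse at 18.5 CPM. The log2 fold change was -1.19 ± 0.31 (SE). Without I-BET151 mouse 3 the group mean was 7.53 ± 0.902 CPM (SD, n = 3), the log2 fold change was -1.55, and edgeR called Ly6a. Within lanes 2, 6 and 7, each of which held a vehicle and an I-BET151 mouse, the difference in log2 CPM was -1.46, -1.27 and -0.84.

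Ly6c2 had 34, 9, 36 and 15 counts in I-BET151 mice 1 to 4, a mean of 0.468 ± 0.188 CPM (SD, n = 4). All lay below the vehicle mice, and their range overlapped that of the healthy mice. On the log2 scale the difference was -1.17 ± 0.41, and within lanes 2, 6 and 7 the difference was -1.53, -0.65 and -1.06. Without I-BET151 mouse 3 it was -1.34.

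Its near copy Ly6c1 had 53, 30, 101 and 69 counts, a mean of 1.31 ± 0.454 CPM (SD, n = 4). I-BET151 mice 3 and 4 fell within the range of the vehicle mice, and mice 1 and 2 lay below it. The log2 fold change was -0.48 ± 0.37 (-0.67 without I-BET151 mouse 3), and within lanes 2, 6 and 7 the differences were 0.03, -1.11 and 0.20, so the sign varied between lanes. Whether Ly6c1 and Ly6c2 differed in their response was not tested.

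Ly6d measured 36.6, 27.8, 14 and 39 CPM in I-BET151 mice 1 to 4. I-BET151 mouse 3 was below every vehicle mouse and the other 3 were within their range. The log2 fold change of -0.53 ± 0.39 turned to 0.06 when vehicle mouse 3 was left out, and was -0.29 without I-BET151 mouse 3. Within lanes 2, 6 and 7 the differences were 0.47, 0.07 and -2.60.

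Ly6e measured 255, 157, 128 and 315 CPM in I-BET151 mice 1 to 4. Mice 2 and 3 lay below every vehicle mouse, near the healthy level, and mice 1 and 4 lay within the vehicle range. Ly6e had a log2 fold change of -0.42 ± 0.24, and -0.24 without I-BET151 mouse 3. Within lanes 2, 6 and 7 the differences were -0.01, 0.15 and -1.33.

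Set against the healthy mice, the I-BET151 mice stood apart for some of these genes and not for others. For Ly6d the log2 fold change of I-BET151 over healthy mice was 4.14 ± 0.46 and for Ly6c1 it was 1.54 ± 0.40, and in both cases the groups did not overlap. For Ly6a it was 0.78 ± 0.31, for Ly6c2 0.55 ± 0.44 and for Ly6e 0.50 ± 0.24, and these groups overlapped. All of these values include I-BET151 mouse 3. That mouse was the only I-BET151 mouse above the healthy range for Ly6a and the only one below it for Ly6e. No threshold was set for I-BET151 against healthy mice, so calls were not counted. Of all 16823 tested genes, 5487 were at an unadjusted p under 0.05 (edgeR) in this contrast.

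The wider Ly6/uPAR family was mostly silent in these livers. Of 43 other family genes found in the files, 9 had no count in any mouse, 30 (those 9 included) never reached 10 counts, and 9 passed the filter on low counts. Ly6g, the antigen used to sort neutrophils, had no more than 3 counts in any library. In vehicle against healthy mice 3 of the 9 were called higher and 0 lower, at a median log2 fold change of 0.19 against 0.01 over all tested genes. Of all tested genes 5.72% were called higher. The rule that selected the 5 Ly6 genes did not use these family members, but the list was written with earlier results known.

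Plaur, the urokinase receptor, rose from between 0.489 and 1.38 CPM in healthy mice to between 1.39 and 3.79 CPM in vehicle mice (log2 fold change 1.60 ± 0.38, edgeR adjusted p = 0.0231). Lynx1, a modulator of nicotinic acetylcholine receptors, rose from between 0.848 and 1.41 to between 2.24 and 2.98 CPM (1.26 ± 0.22, edgeR adjusted p = 0.00446). 9030619P08Rik, annotated as a transcribed pseudogene, rose from between 1.92 and 3.79 to between 5.94 and 11.3 CPM (1.62 ± 0.29, edgeR adjusted p = 0.00482). The groups did not overlap for any of these. The Plaur call was lost without healthy mouse 2, 3 or 4 or vehicle mouse 3 or 4, and with lane as a covariate 0 of the 9 were called (3 at an unadjusted p under 0.05).

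The most abundant of the family genes that were not called had small differences. BC025446 differed by 0.29 ± 0.14 (log2, edgeR adjusted p = 0.255). Gpihbp1, which carries lipoprotein lipase on capillary endothelium, differed by 0.03 ± 0.17 (edgeR adjusted p = 0.948). The complement inhibitor genes Cd59a and Cd59b differed by -0.09 ± 0.15 (edgeR adjusted p = 0.760) and -0.07 ± 0.27 (0.906), and Ly6g5b by -0.26 ± 0.49 (0.799).

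In I-BET151 against vehicle mice edgeR called 0 of the 9 family genes, DESeq2 also called 0, and 1 was at an unadjusted p under 0.05. That gene, Ly6g5b, had a log2 fold change of 1.15 ± 0.47 (edgeR adjusted p = 0.503), and its level was 2.04 CPM in I-BET151 mouse 3 against 0.396 to 0.663 CPM in the other I-BET151 mice. The Plaur log2 fold change was -0.65 ± 0.36 and that of Lynx1 was 0.02 ± 0.21.

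**Figure D2:**
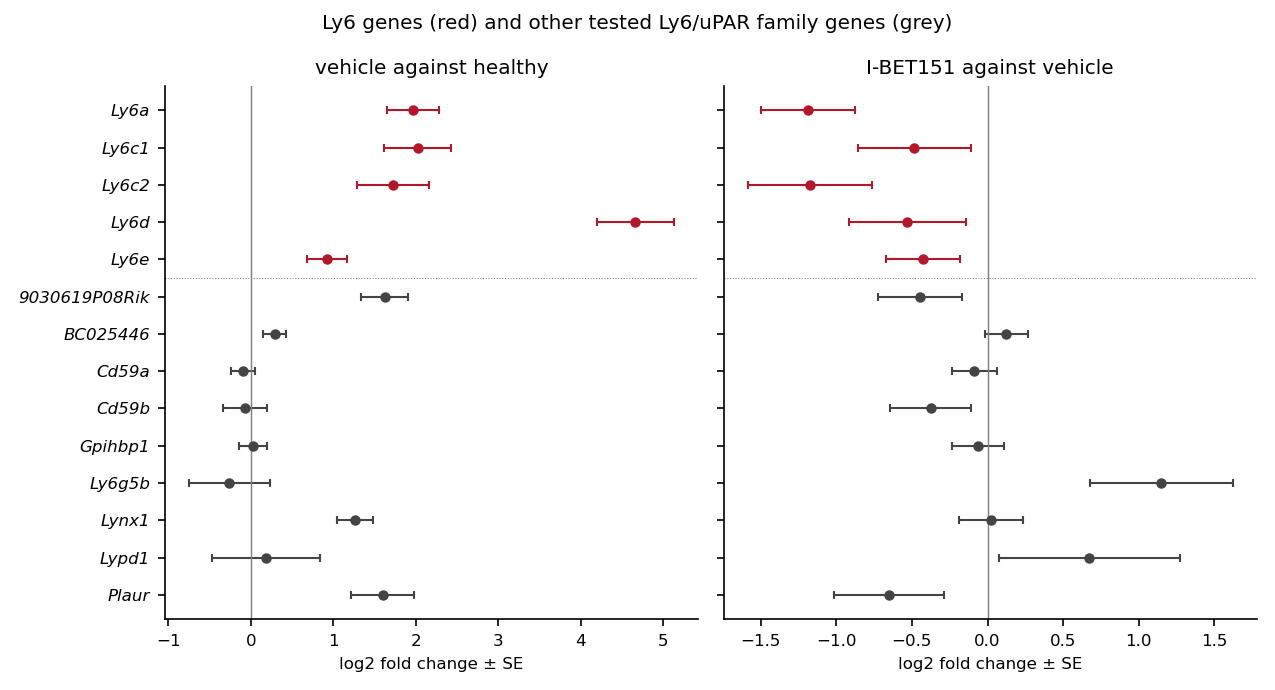
Log2 fold change with its standard error (edgeR, 12 mice) of the 5 Ly6 genes (red) and the 9 other tested Ly6/uPAR family genes (grey) for vehicle against healthy mice and for I-BET151 against vehicle mice. Ly6d stands at 4.67 in the first comparison, and all 5 red points are below 0 in the second, where none was called.

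Along the chromosome, the Ly6 genes stood among neighbours that were largely not expressed. Within 500 kb either side of the 5 genes lay 47 other genes of the files, of which 8 passed the filter. Of these 8, 2 (Lynx1 and 9030619P08Rik) were called higher in vehicle mice, as were 5.72% of all tested genes. All 8 had log2 fold changes above 0 in vehicle against healthy mice, with a median of 0.89 against 0.01 over all tested genes. Of the 8, 5 were at an unadjusted p under 0.05 (edgeR), as were 3749 of all 16823 tested genes. None of the 8 was called in I-BET151 against vehicle mice (edgeR), and 0 were at an unadjusted p under 0.05. Between the outermost of the 5 genes lie 8 other protein-coding genes, Ly6i and Ly6k among them, and 0 of them passed the filter.

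**Figure D3:**
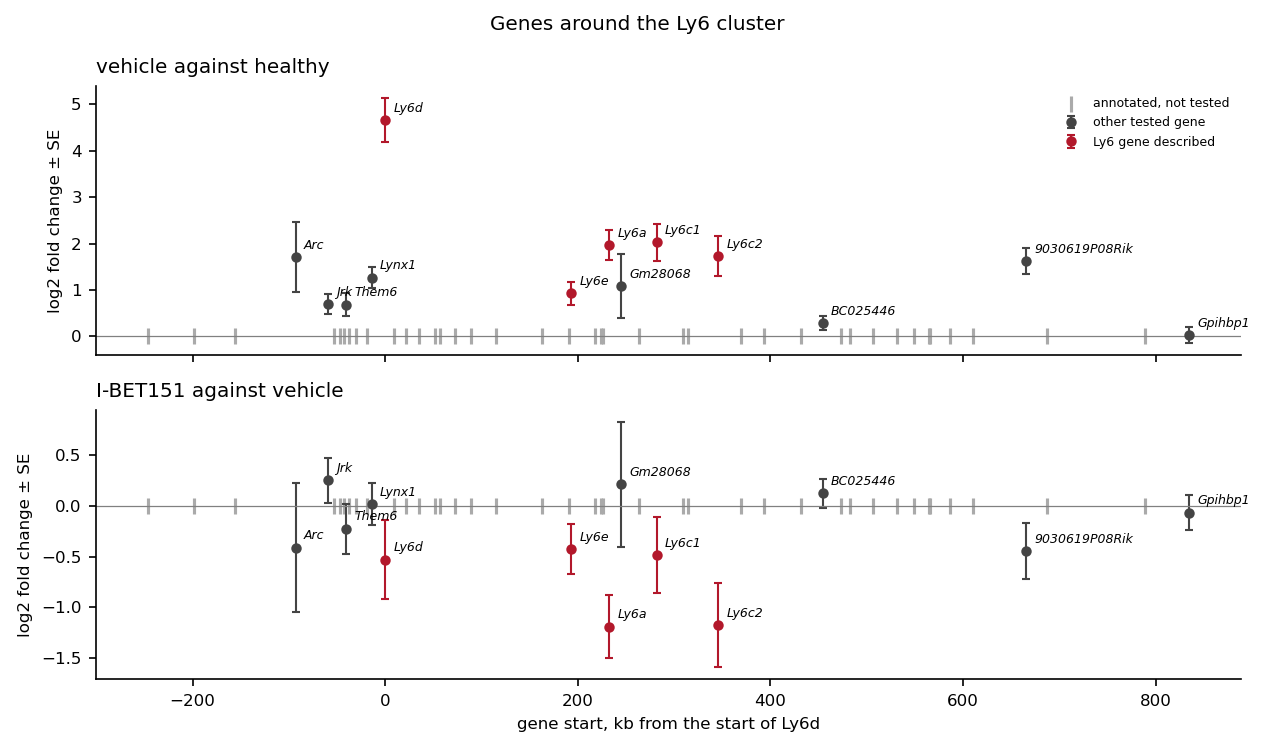
Log2 fold change with its standard error for tested genes around the Ly6 cluster on chromosome 15, against the distance of the gene's start from the start of Ly6d in kb. Red points are the 5 Ly6 genes, grey points the other 8 tested genes, and grey ticks annotated genes that did not pass the filter.

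Interferon-stimulated genes are given beside the Ly6 genes, since Ly6a and Ly6e are known members of that response. The list was written with earlier results known. Of 24 such genes, 16 were called higher in vehicle than in healthy mice and 0 lower, with a median log2 fold change of 1.12. Of all tested genes 5.72% were called higher, and their median was 0.01. Usp18, which removes the ubiquitin-like Isg15, rose by 1.5 ± 0.16 (log2, edgeR adjusted p = 0.000212), and the antiviral sensor Oas1a rose by 2.33 ± 0.27 (edgeR adjusted p = 0.000364). In I-BET151 against vehicle mice 0.256% of all tested genes were called lower. Of the 24 interferon-stimulated genes, 6 were called lower and 0 higher, at a median of -0.71. These were Cmpk2, Ifit1, Irf7, Isg15, Rsad2 and Usp18, with Usp18 at -1.13 ± 0.16 (edgeR adjusted p = 0.0186) and Ifit1 at -1.47 ± 0.21 (edgeR adjusted p = 0.0193). The log2 fold changes of Ly6a in the same comparisons were 1.97 and -1.19, and those of Ly6e were 0.92 and -0.42.

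The genes whose log2 CPM most resembled that of each Ly6 gene over the 12 mice were found among 13136 tested genes of at least 1 CPM. The 12 mice fall in 3 groups, so these coefficients are descriptions of shared group differences as well as of shared variation. For Ly6a they were the interferon-induced genes Oas1g (Pearson r = 0.955), Isg20 (0.952) and Xaf1 (0.943). For Ly6d they were Ifi27l2b (0.992), Pgd (0.982), which encodes an enzyme of the pentose phosphate pathway, and Scn4b (0.973), a sodium channel subunit. For Ly6e they were Mpeg1 (0.971), a pore-forming protein of macrophages, Tlr13 (0.950), a receptor for bacterial RNA, and Lepr (0.950), the leptin receptor.

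For Ly6c1, S100a6 (0.941) and Gramd1b (0.934) were among the most alike, and for Ly6c2 they were Lst1 (0.921), Plekha2 (0.921) and Ifi208 (0.911). Without I-BET151 mouse 3 the coefficients of the genes named here lay between 0.910 and 0.994, but only Xaf1, Ifi27l2b and Mpeg1 of them were still among the 3 most alike, and the others ranked from 4 to 19. Among the 5 Ly6 genes themselves, r over 12 mice was highest for Ly6a with Ly6c2 (0.872) and Ly6a with Ly6c1 (0.854), and lowest for Ly6c1 with Ly6e (0.608). Without I-BET151 mouse 3, Ly6c1 with Ly6e went to 0.802, and the lowest pair was Ly6c1 with Ly6c2 (0.635).

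Markers of cell types that carry Ly6 antigens were measured in the same libraries, and their part in the Ly6 levels was not tested. Over all 16823 tested genes, 5.72% were called higher in vehicle mice and 0.256% lower with I-BET151. At an unadjusted p under 0.05 (edgeR) were 3749 and 1460 of them in the 2 comparisons. Hepatocyte markers, which define the labelled tissue, summed to 115542 to 139697 CPM in healthy mice, 63809 to 80992 in vehicle mice and 24474 to 96663 in I-BET151 mice, where all but mouse 3 were at 80426 or above. Alb made up a mean of 81119 of 125958 CPM in healthy and 41310 of 73679 in vehicle mice. All 8 were lower in vehicle mice, by log2 fold changes from -0.97 (Alb) to -0.02 (Hnf4a). In either comparison 0 were called (edgeR, 1 and 0 at an unadjusted p under 0.05). The 8 monocyte markers summed to 5.55 to 9.0 CPM in healthy mice, 11.6 to 27.8 in vehicle mice and 7.5 to 20.1 in I-BET151 mice. The highest vehicle value was that of mouse 3, also the highest vehicle mouse for Ly6a, Ly6c2, Ly6d and Ly6e, and the other vehicle mice reached at most 17 CPM. Vehicle mouse 3 also led its group for the hepatocyte, Kupffer cell, B cell, neutrophil, plasmacytoid dendritic cell, adipocyte, stellate cell and squamous sums. Single genes dominated 3 of these sums in vehicle mice. They were Cidec (a mean of 85.3 of 85.4 CPM, adipocyte), Tcf4 (11.4 of 12.7, plasmacytoid dendritic cell) and Sprr1a (0.777 of 0.982, squamous). Of the monocyte markers, 2 were called higher in vehicle mice, Plac8 and Cx3cr1, and 0 of 8 were called with I-BET151 (edgeR, 0 at an unadjusted p under 0.05). The 10 sinusoidal and vascular endothelial markers, which include cells that carry Ly6a and Ly6c1, summed to 389 to 602, 448 to 569 and 436 to 567 CPM in the 3 groups, and 0 of 10 were called in either comparison (edgeR, 2 at an unadjusted p under 0.05 in vehicle against healthy mice and 0 with I-BET151).

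The 10 T cell markers summed to 4.13 to 9.85 CPM in healthy mice, 9.83 to 13.1 in vehicle mice and 4.80 to 7.17 in I-BET151 mice, with the I-BET151 and vehicle mice apart. The highest healthy value was that of mouse 1, also the highest healthy mouse for Ly6a, Ly6c1 and Ly6c2, and the other healthy mice reached at most 4.91 CPM. Healthy mouse 1 also led its group for the endothelial, monocyte, Kupffer cell, NK cell, B and plasma cell, neutrophil and biliary sums. At an unadjusted p under 0.05 were 7 of the 10 T cell markers in each comparison, with median log2 fold changes of 0.95 and -1.05. Cd8a and Cd8b1 were called higher in vehicle mice, and Cd4 was called lower with I-BET151. The 8 B and plasma cell markers, the lineage for which Ly6d marks progenitors, summed to 3.02 to 6.21, 3.85 to 7.00 and 2.83 to 5.31 CPM, and 0 of 8 were called in either comparison (edgeR, 0 at an unadjusted p under 0.05). The 7 squamous epithelial markers, of the other cell type that makes Ly6d, summed to 0 to 0.0291 CPM in healthy mice, 0.476 to 2.03 in vehicle mice (2.03 in mouse 3, at most 0.721 in the others) and 0.377 to 1.27 in I-BET151 mice. Krt5, Krt14, Krt15, Dsg3, Ivl and Sprr1a had 0 counts in every healthy mouse, and Krt5, Krt15 and Dsg3 in every I-BET151 mouse. Sprr1a reached 92 counts and was called higher in vehicle mice, while the keratin genes Krt5, Krt14 and Krt15 did not pass 3 counts in any library.

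**Figure D4:**
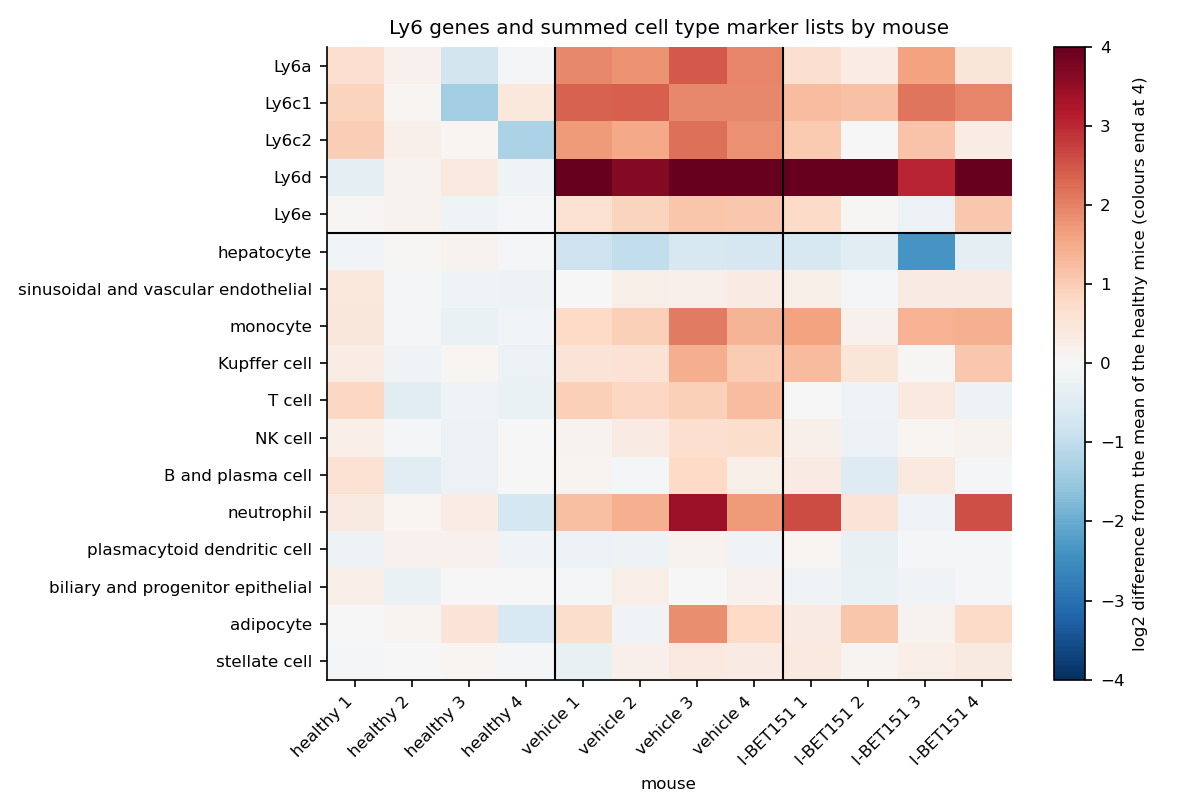
Log2 difference of each mouse from the mean of the healthy mice for the 5 Ly6 genes (log2 CPM, upper rows) and for summed cell type marker lists (lower rows), with colours ending at 4. Ly6d is at the end of the colour scale in most STAM mice, the neutrophil and monocyte sums are uneven between mice of a group, and the hepatocyte sum is lowest in I-BET151 mouse 3. The adipocyte row is mainly Cidec and the plasmacytoid dendritic cell row mainly Tcf4. The squamous epithelial list, at 0 in some healthy mice, is left out.

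The 6 Kupffer cell markers summed to 151 to 216, 251 to 483 and 182 to 431 CPM in healthy, vehicle and I-BET151 mice, with 3 (Clec4f, Marco and Adgre1) called higher in vehicle mice. The 8 neutrophil markers summed to 0.546 to 1.15, 2.09 to 9.94 and 0.825 to 5.53 CPM, with Ngp called higher in vehicle mice. The value of 9.94 was that of vehicle mouse 3, and the other vehicle mice reached at most 2.97 CPM. Only 5 of the 8 neutrophil markers passed the filter. In vehicle against healthy mice all 5, and 4 of the 6 Kupffer cell markers, were at an unadjusted p under 0.05 (edgeR). With I-BET151 edgeR called 0 genes of either list. At an unadjusted p under 0.05 was then Ngp alone (log2 fold change -2.94 ± 0.85), which had at most 83 counts in any library. NK cell, plasmacytoid dendritic cell and adipocyte lists had 0 genes called in either comparison (edgeR, 1 gene of each at an unadjusted p under 0.05 in vehicle against healthy mice and 0 with I-BET151). Only 2 of 6, 3 of 5 and 1 of 5 of their genes passed the filter on low counts, and the rest could not be called. In the adipocyte list Lep had 0 counts in every mouse, and Retn had 0 counts in every healthy mouse. Of the biliary and stellate cell lists 1 gene each, Cldn4 and Rgs5, was called higher in vehicle mice, and 0 were called lower. Log2 fold changes were below 0 for 2 of 6 tested biliary and 3 of 6 tested stellate genes. At an unadjusted p under 0.05 (edgeR) were 3 biliary and 4 stellate genes, of which Lrat and Reln were lower. With I-BET151 0 were called, and 1 of each list was at an unadjusted p under 0.05.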

How the data were processed

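Liver RNA was extracted from 12 mice and prepared as stranded, poly(A)-selected libraries sequenced as 101-base read pairs. The authors mapped reads with STAR (2.5.1b) to mm10 and counted uniquely mapped reads per gene with HTSeq. The deposited values are raw counts for 47729 Ensembl genes, 1 table per mouse. The annotation release behind them is not given in the sources used here. Groups were taken from the sample labels. The study left out an I-BET151 library, for low gene counts, that it did not name, and all 4 were used here. I-BET151 mouse 3 had the lowest total (34711229 counts, against 35171038 in mouse 2) but the most genes with a count (24304, against 22293 in mouse 2). These values do not settle which library the study left out.

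Gene names, positions and transcripts came from GENCODE M21 (GRCm38), which matched 47310 genes and left 419 unmatched. Genes were filtered with filterByExpr (minimum count 10), scaled by TMM and fitted with edgeR 4.0.16 (R 4.3.3, limma 3.58.1), all 3 groups in 1 quasi-likelihood fit, with Benjamini-Hochberg adjustment and thresholds of 0.05 (vehicle against healthy) and 0.1 (I-BET151 against vehicle). Standard errors are the log2 fold change over the square root of F. Log2 CPM carried a prior count of 2. Alternatives were DESeq2 1.42.0, other scaling and filters, lane or replicate number as a term, only the groups compared, and each mouse left out. Sequences were aligned with Biopython 1.88.

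Members and gene lists were chosen with earlier results of these data known. Named genes were the 5 members, called family genes (at most 10) and the 5 most abundant not called, the 3 genes most correlated with each member (1 result under this rule is not reported here), called protein-coding genes within 500 kb, and markers at 0 in a group. Marker, interferon and family genes named beyond these were chosen after their values were seen. Mice of a group differed by more than counting noise (chi-square per degree of freedom 35.3 to 746). P-values measure the spread between these mice.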

Additional observations from a re-analysis of the deposited data

Results flagged for a closer look

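Over the 5 Ly6 genes in the 3 groups, 15 sets of 4 mice were examined with Dixon's test, and 0 had a mouse beyond its 95% limit. Chance flags about 1 in 20 such sets.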

How the results depend on the processing

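The log2 fold changes of the 5 Ly6 genes kept their sign in every alternative run, apart from Ly6d in I-BET151 against vehicle mice, which ran from -0.75 to 0.059 with 1 mouse left out, the upper value without vehicle mouse 3. With sequencing lane as a covariate the vehicle against healthy values were 1.31 for Ly6a, 1.18 for Ly6c1, 1.17 for Ly6c2, 5.02 for Ly6d and 0.94 for Ly6e. Of the 5, 3 were called in that comparison when 10 counts were asked of every mouse (Ly6c1 and Ly6c2 were then not tested), 0 with lane, and 3 to 5 with 1 mouse left out. In I-BET151 against vehicle mice 1 was called by DESeq2 and without a count filter, and 0 to 1 with 1 mouse left out. With lane, 0 other family and 0 interferon genes were called in vehicle against healthy mice (3 and 17 at an unadjusted p under 0.05).

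Interferon genes called with I-BET151 numbered 13 by DESeq2, 0 with lane (15 at an unadjusted p under 0.05), 3 with only the 2 groups compared and 3 to 19 with 1 mouse left out (19 without I-BET151 mouse 3, 3 without vehicle mouse 4 or I-BET151 mouse 4). Over all genes, calls in vehicle against healthy mice numbered 1195, and 1891 by DESeq2, 37 with lane, 3879 with only the 2 groups compared and 546 to 3779 with 1 mouse left out (3779 without I-BET151 mouse 3, 546 to 672 without healthy mouse 2, 3 or 4 or vehicle mouse 3 or 4). With I-BET151 they numbered 59, and 268 by DESeq2, 101 without a filter, 0 with lane (edgeR, 1485 at an unadjusted p under 0.05), 8 with only the 2 groups compared and 13 to 403 with 1 mouse left out (403 without I-BET151 mouse 3, 103 without mouse 2, 33 without mouse 4, 13 without mouse 1 or vehicle mouse 4, 24 without vehicle mouse 2). The cause was not tested.

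With replicate number as a replicate block, 742 and 10 genes were called in the 2 comparisons, 4 of the 5 Ly6 genes (not Ly6e) in the first, and 3 interferon genes in the second. Same-numbered mice did not deviate together (mean r -0.07 and -0.06, against 0.02 and 0.02 for other pairs). With few pairs, and deviations taken from group means, these values cannot decide whether the numbers pair the mice. Vehicle mice 1, 3 and 4 shared lanes 6, 7 and 2 with the I-BET151 mice of the same number.

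Depth limits Ly6c1 and Ly6c2, which had 3 to 113 counts per library.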
